A study of Mus musculus with 21 samples.

Results

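The matrix metalloproteinases (Mmp genes), the ADAMTS proteases (Adamts genes) and the tissue inhibitors of metalloproteinases (Timp genes) were followed by RNA sequencing in a mouse cell line that carried mutant or wild-type histone H2B. The set was taken by symbol: 46 of the 24091 genes of the expression table are named Mmp, Adamts or Timp with a number, and of these 23 are Mmp genes, 19 Adamts genes and 4 Timp genes. ADAMTS-like genes, which encode no protease, were left outside the set. The cells were C3H/10T1/2, an established line of mesenchymal progenitors from mouse embryo, and all groups share that line and its culture medium. There were 7 groups of 3 libraries, 21 in all, labelled by the H2B they expressed: E71K, E71Q, E76K, E76Q, E113K, E113Q and wild-type H2B (WT). Each label names a glutamate of H2B and what replaced it, lysine (K), which reverses the charge, or glutamine (Q), which removes it, and E113 lies in the acidic patch of the nucleosome surface. The study's design text calls the 3 libraries independent replicates of a biological kind. It does not say whether they came from separate cultures or lines, so the p-values measure the spread between these libraries. How the H2B was introduced, and whether a group is 1 clone, is not given in the sources used here. A difference between lines and an effect of the substitution cannot be told apart.

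Both protease families are zinc enzymes that act outside the cell or at its surface. MMPs cleave collagens, gelatin, fibronectin and many other secreted proteins, and most leave the cell as inactive proenzymes. Secreted ADAMTS proteases fall into groups by substrate: proteoglycanases that cut versican and aggrecan, procollagen N-proteinases, enzymes that cut cartilage oligomeric matrix protein, fibrillin-associated members and ADAMTS13, which cuts von Willebrand factor. The TIMPs bind the active sites of these enzymes, and TIMP3 is the main TIMP inhibitor of the proteoglycanases. In mesenchymal cells the family is known for turning over the pericellular matrix during migration, growth and differentiation toward cartilage, bone and fat.

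Values are TPM, the share of transcripts in a library scaled by transcript length, which can be set side by side between genes, as the authors deposited them. A gene was tested where its mean over the 21 libraries was at least 1 TPM. Fold changes are differences of group means of log2(TPM + 1), which understates the change of genes near 1 TPM. They are given with their standard error (SE) and with the p-value from limma, adjusted by Benjamini and Hochberg over the 12192 genes tested in that comparison. The SE of a gene rests on a spread shared by all 7 groups, and is not the spread of the groups compared. A gene is said to have risen or fallen where the adjusted p was below 0.05. All 6 mutants are set against the same 3 WT libraries, so their comparisons with WT are not independent of each other.

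All libraries held mesenchymal genes. The summed level of 9 mesenchymal markers was between 11517 and 19308 TPM in every library, though Thy1, a surface marker among them, was near 0 in E71K, E71Q and E76Q. Single markers moved both ways against WT. In E71K 1 rose and 2 fell (of all genes 12.5% and 14.2%), in E71Q 1 and 5 (20.7% and 23.5%). In E76K it was 3 and 1 (23.5% and 9.67%), in E76Q 1 and 3 (22% and 22.4%). In E113K 5 rose and 0 fell (30.3% and 20.7%), and in E113Q 3 rose and 1 fell (17.9% and 12.7%). The summed level of 5 endothelial markers stayed between 0.247 and 3.89 TPM, and of the 8 leukocyte markers Ptprc never passed 0.172 TPM and Tyrobp was at 0 in every mutant group. The 8 leukocyte markers came to 20.1 to 49.8 TPM in E71K, 44.3 to 108 in E71Q, 82.2 to 121 in E76K, 55.7 to 60.01 in E76Q, 12.1 to 12.4 in E113K and 12.4 to 15.0 in E113Q, against 31.1 to 32.0 in WT. Of the 3 that were tested, Lyz2, the lysozyme of myeloid cells, rose in E71Q, E76K and E76Q and fell in E113K and E113Q, and Cd14, a lipopolysaccharide co-receptor, fell in E71K and E113Q. The part of these markers in the results on Mmp, Adamts and Timp genes was not tested. Of 7 epithelial markers Krt14 was the one with a high level, in E71K and E71Q. The 7 summed to 81.9 to 489 TPM in E71K and 41.5 to 365 TPM in E71Q, against 12.4 to 15.1 TPM in WT. They summed to 2.08 to 10.1 TPM in E76K, 1.54 to 1.90 in E76Q, 0.829 to 0.993 in E113K and 2.77 to 4.48 in E113Q. Of the 3 epithelial markers tested, 1 rose and 2 fell in E71K and in E71Q. In each other mutant 0 rose and 2 fell. Over the 6 mutants 9.67% to 23.5% of all genes fell. A single short RNA, Mir6236, took between 2.19% and 30.6% of the TPM of a library. The read depth is unknown, since TPM keeps no read total. In 4 groups 1 library stood apart from its mates in earlier results of these data, namely replicate 3 of E71K, replicate 1 of E71Q, replicate 3 of E76K and replicate 3 of E113Q. These 4 libraries were thus picked from the same data. Leaving them out changes the spread shared by all 7 groups, so a lower p-value without them is not support for a difference. Among the 22 tested members E71K replicate 3 was the highest of its group for 15 and the lowest for 2. E71Q replicate 1 was the lowest for 16 and the highest for 4. E76K replicate 3 was the highest for 18 and the lowest for 4, and E113Q replicate 3 was the highest for 9 and the lowest for 11. The median coefficient of variation of the tested members was 33.4% in E71K, 22.5% in E113Q, 21.5% in E76K and 18.7% in E71Q. It was 6.34% in E76Q, 5.61% in E113K and 7.87% in WT.

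Genes of dividing cells moved with several groups and with these libraries. The summed TPM of 6 such markers (Mki67, Top2a, Cdk1, Ccnb1, Plk1 and Bub1) was 629, 455 and 315 in E71K, 201, 156 and 184 in E71Q, 517, 527 and 245 in E76K, and 503, 488 and 150.0 in E113Q. It lay between 237 and 241 in E76Q and between 94.2 and 99.4 in E113K, against 502 to 552 in WT. All 6 fell in E71Q and in E113K, where 23.5% and 20.7% of all tested genes fell. In E76Q 3 fell (22.4% of all genes), in E113Q 2 (12.7%) and in E76K 1 (9.67%). In E71K 0 fell (14.2%) and 0 rose (12.5%). In bulk RNA fewer dividing cells and less of these transcripts per cell cannot be told apart, and their part in the results below was not tested.

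Of the 46 members 22 passed the filter and were tested, 8 Mmp, 11 Adamts and 3 Timp genes. The other 24 averaged under 1 TPM, and 19 of them never reached 1 TPM in a library. Mmp1b, Mmp7, Mmp8 and Adamts3 were listed at 0 in every library. Of the tested members, Mmp3 and Adamts9 passed the filter only through the group where each was highest. That group was E76K for Mmp3 and E76Q for Adamts9, so their calls there are not independent of the filter. Both are kept in the counts below.

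Averaged over libraries, the inhibitors were the more abundant side in 6 of the 7 groups. Timp2 had the highest level of all members in each of the 7 groups. In WT its mean of 509.5 ± 9.38 TPM (SD, n = 3) was followed by Timp3, Mmp2, Timp1 and Mmp14, and the ranges of Mmp2 and Timp1 did not overlap. In E113K the order was Timp2, Adamts1, Mmp14, Mmp2 and Timp3, with means of 1062, 870.1, 798, 492 and 320.2 TPM, and no neighbouring ranges overlapped. In E71Q, where Mmp2 averaged 689.6 TPM and Timp3 662 TPM, the ranges of these neighbours overlapped. Summed over a family, the 23 Mmp genes came to 620 ± 422 TPM in E71K, 1177 ± 422 in E71Q, 723 ± 217 in E76K, 691 ± 19.6 in E76Q, 1538 ± 35.1 in E113K and 957 ± 313 in E113Q, against 390.3 ± 25.4 in WT (SD, n = 3 each). The E71K mean rested on replicate 3: its libraries held 429, 327 and 1105 TPM, and the mean without replicate 3 was 378 TPM, below that of WT. No other library moved the mean of a family sum by over 1.5 times. The 19 Adamts genes came to 105 ± 24.9 TPM in E71K, 94.3 ± 20.3 in E71Q, 325 ± 121 in E76K, 135 ± 6.35 in E76Q, 1162 ± 60.2 in E113K and 321 ± 72.2 in E113Q, against 123 ± 6.24 in WT. The 4 Timp genes came to between 1254 and 2056 TPM as group means in the mutants, against 919 ± 9.73 TPM in WT.

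The ratio of summed protease to summed inhibitor transcripts was 1.77 ± 0.0645 in E113K. It was 0.452 ± 0.164 in E71K, 0.616 ± 0.203 in E71Q, 0.822 ± 0.151 in E76K, 0.540 ± 0.0182 in E76Q and 0.878 ± 0.126 in E113Q, against 0.559 ± 0.0396 in WT (SD, n = 3 each). Protease transcripts outnumbered those of the inhibitors in all 3 libraries of E113K and in E113Q replicate 3, where the ratio was 1.02 and its mates stood at 0.789 and 0.824. The E71Q libraries, at 0.382, 0.743 and 0.722, lay on both sides of WT, and so did those of E71K, at 0.355, 0.359 and 0.642. The ratio counts transcripts and says nothing of protein or activity. Mmp2 and Mmp14 together made up 83.9% of the Mmp sum in E113K and 78.0% in WT, and Adamts1 and Adamts5 made up 92.9% of the Adamts sum in E113K and 72.1% in WT.

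**Figure D1:**
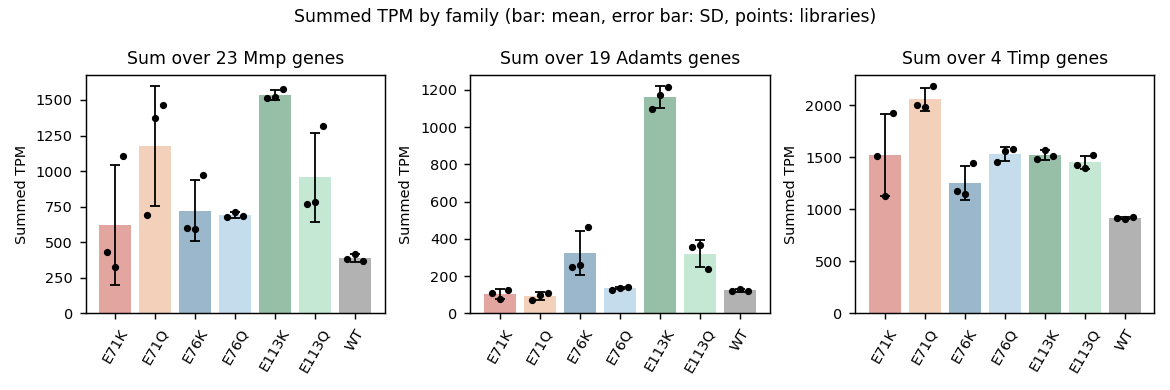
Summed TPM of the Mmp, Adamts and Timp genes in each of the 3 libraries of every H2B group, with the group mean. The E113K libraries hold the highest Mmp and Adamts sums on average. Their ratio of summed protease to summed Timp TPM averages 1.77 against 0.559 in WT.

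**Figure D2:**
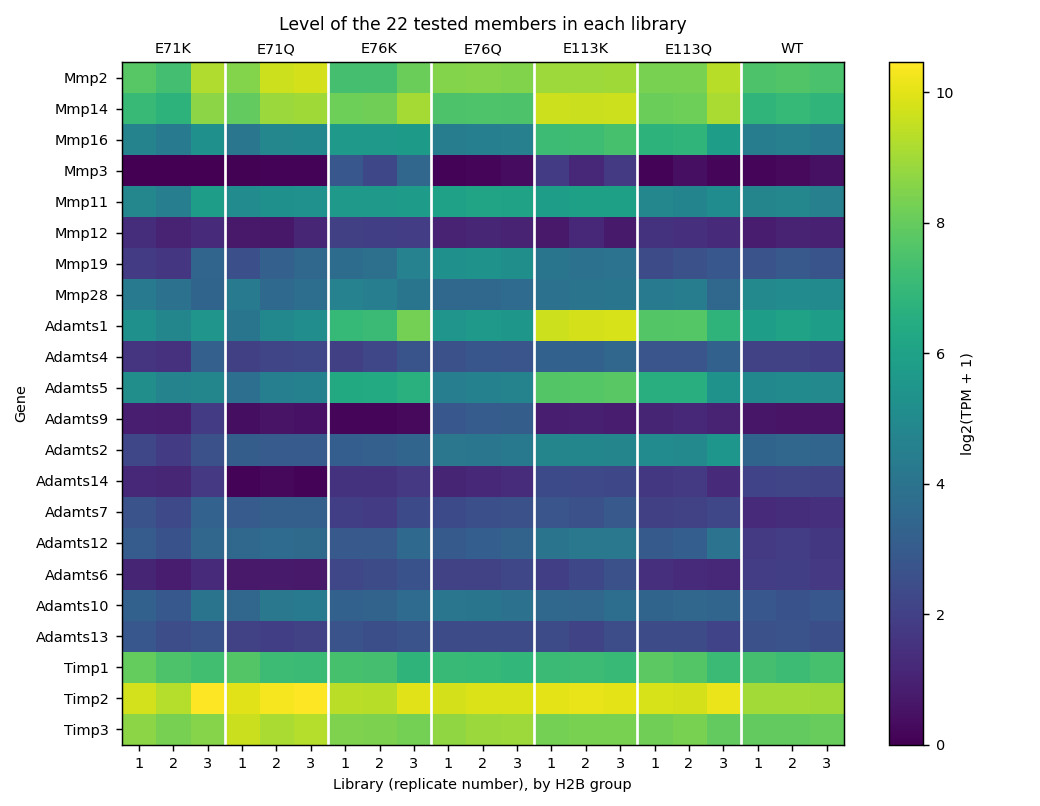
Level of each of the 22 tested members as log2(TPM + 1), by colour, in each of the 21 libraries, in columns by H2B group with WT at the right. Timp2 is the highest row on average in every group, and Adamts1 is high in the 3 E113K columns, with 816 to 911 TPM.

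The counts of changed members differed between the mutants. In E113K 16 of the 22 tested members changed, where 51% of all tested genes were called. Of these 15 rose, against 30.3% of all genes, and 1 fell, against 20.7%. In E113Q 15 members changed, against 30.6% of all genes: 12 rose (17.9% of all genes did) and 3 fell (12.7%). In E76K 14 changed, against 33.2%: 13 rose (23.5% of all genes) and 1 fell (9.67%). In E71Q 13 changed, against 44.2%: 7 rose (20.7% of all genes) and 6 fell (23.5%). The E76Q libraries had 11 changed members, close to the 44.3% of all genes, of which 9 rose (22% of all genes) and 2 fell (22.4%). In E71K 9 changed, against 26.7%: 5 rose (12.5% of all genes) and 4 fell (14.2%). The median log2 fold change of the 22 members was 0.28 in E71K, 0.06 in E71Q, 0.60 in E76K, 0.68 in E76Q, 1.21 in E113K and 0.57 in E113Q. Over all 12192 genes the medians were 0.00, 0.00, 0.16, 0.02, 0.13 and 0.06 in the same order, and a median-ratio rescaling brought those of E76K and E113K to 0.01.

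A change of at least 2-fold that passed the test was seen for 13 members in E113K, where 18% of all genes did this. It was seen for 11 members in E71Q (15.6% of all genes), 7 in E76K (10.3%), 7 in E76Q (15.5%), 7 in E113Q (9.97%) and 4 in E71K (9.85%). All 3 libraries lay beyond all 3 WT libraries for 13 members in E71K (32.6% of all genes), 16 in E71Q (57.7%), 17 in E76K (63.8%), 19 in E76Q (72.8%), 21 in E113K (76.1%) and 17 in E113Q (56.4%). Across the 7 groups 21 of the 22 members differed in the F test, where 77.1% of all genes did, and Timp1 was the exception. Leaving out single libraries moved 2 of the counts by over 1.5 times. The E76K count was 9 without E76K replicate 3 (23% of all genes were then called), and the E113Q count was 9 without WT replicate 2 (23.5%) and 9 without E113Q replicate 3 (26.1%). Without the 4 libraries that stood apart the counts were 12 in E71K (40.6% of all genes), 17 in E71Q (59.3%), 18 in E76K (43.8%), 17 in E76Q (59.9%), 18 in E113K (64.6%) and 18 in E113Q (44.4%).

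**Figure D3:**
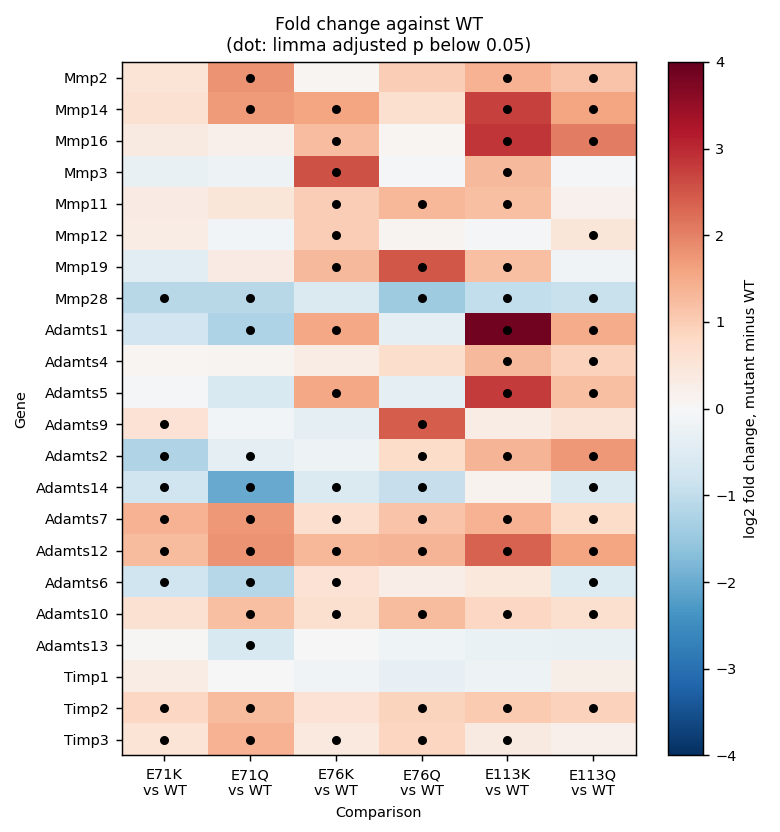
Log2 fold change against WT of the 22 tested members in each mutant, with marks for the comparisons that passed the test. E113K holds 15 members that rose and 1 that fell, and Adamts12 and Adamts7 rose in all 6 mutants.

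The membrane-type protease MMP14 activates pro-MMP2 at the cell surface together with TIMP2, which docks the proenzyme there. Transcripts of all 3 rose in E71Q, E113K and E113Q. Mmp14 stood at 136, 107 and 399 TPM in E71K, 249, 466 and 495 TPM in E71Q, 286, 289 and 536 TPM in E76K, 183, 191 and 187 TPM in E76Q, 800.0, 787 and 807 TPM in E113K and 278, 287 and 561 TPM in E113Q, against 114, 129 and 114 TPM in WT. Every library of E71Q, E76K, E76Q, E113K and E113Q lay above all 3 WT libraries, and only in E71K did the groups overlap. The mean in E113K was 6.71 times that of WT, with a log2 fold change of 2.74 ± 0.39 (adjusted p = 2.31e-05). Mmp14 also rose in E71Q, E76K and E113Q, by 1.69 ± 0.39 (adjusted p = 0.0021), 1.57 ± 0.39 (adjusted p = 0.00536) and 1.57 ± 0.39 (adjusted p = 0.00536) in that order. In E71K and E76Q the values were 0.59 (adjusted p = 0.291) and 0.65 (adjusted p = 0.189), and without the 4 libraries that stood apart they were 0.02 (adjusted p = 0.879) and 0.65 (adjusted p = 1.22e-05). None of the 4 is of E76Q or WT, so the E76Q fold change stayed and its p-value fell with the shared spread.

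Mmp2, gelatinase A, stood at 216, 161 and 588 TPM in E71K, 371, 817 and 881 TPM in E71Q, 167, 166 and 275 TPM in E76K, 362, 380.1 and 360.2 TPM in E76Q, 481, 489 and 505 TPM in E113K and 328, 328 and 647 TPM in E113Q, against 183, 198 and 175 TPM in WT. E71Q held the highest libraries, and those of E71K and E76K overlapped WT. Its log2 fold change was 1.79 ± 0.39 (adjusted p = 0.00138) in E71Q, 1.404 ± 0.39 (adjusted p = 0.00666) in E113K and 1.15 ± 0.39 (adjusted p = 0.0345) in E113Q. The E113Q call was lost without E113Q replicate 3, at 0.82 (adjusted p = 0.163), and without any 1 of the WT libraries (adjusted p between 0.0662 and 0.0902). Mmp2 in E76Q, at 0.98 (adjusted p = 0.0502), lay just outside the threshold, with every library above WT. Without the 4 libraries that stood apart its adjusted p was 5.43e-07. The fold change stayed, since none of the 4 is of E76Q or WT, and the lower p-value came from the shared spread. In E76K Mmp2 stood at 0.09 (adjusted p = 0.891), so in that mutant Mmp14 passed the test and Mmp2 did not.

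Timp2 stood at 856, 627 and 1386 TPM in E71K, 1015, 1271 and 1408 TPM in E71Q, 666, 643 and 1021 TPM in E76K, 894, 962 and 974 TPM in E76Q, 1036, 1097 and 1051 TPM in E113K and 907, 871 and 1136 TPM in E113Q, against 509, 519 and 501 TPM in WT. All 18 mutant libraries lay above all 3 WT libraries. The rise was 0.83 ± 0.22 (adjusted p = 0.00856) in E71K, 1.26 ± 0.22 (adjusted p = 0.000194) in E71Q, 0.89 ± 0.22 (adjusted p = 0.00352) in E76Q, 1.06 ± 0.22 (adjusted p = 0.000744) in E113K and 0.92 ± 0.22 (adjusted p = 0.00408) in E113Q. In E76K the difference was 0.57 (adjusted p = 0.0528), and 0.36 (adjusted p = 0.0127) without the 4 libraries that stood apart. The E71K call was lost in a fit of the E71K and WT libraries alone (adjusted p = 0.141).

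**Figure D4:**
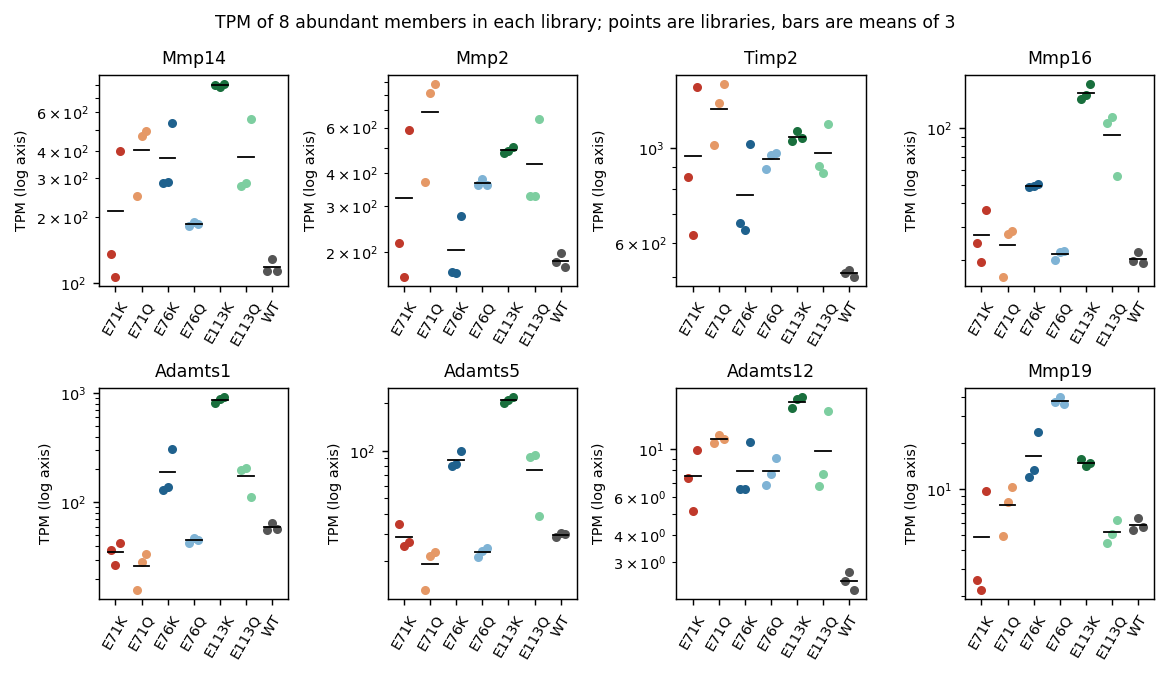
TPM on a log axis of 8 members (Mmp14, Mmp2, Timp2, Mmp16, Adamts1, Adamts5, Adamts12 and Mmp19) in each of the 3 libraries of every group, mutants left of WT, with the group mean. Adamts1 averages 870.1 TPM in E113K and 59.5 TPM in WT, and Adamts12 lies above WT in all 18 mutant libraries.

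The other tested membrane-type protease was Mmp16, which rose in E76K and in both E113 mutants. Mmp16 stood at 48.8, 49.1 and 50.7 TPM in E76K, 142, 148 and 170.2 TPM in E113K and 106, 115 and 55.5 TPM in E113Q, against 19.9, 22.2 and 19.3 TPM in WT, with no overlap between any of these mutants and WT. Its log2 fold change was 1.24 ± 0.25 (adjusted p = 0.000963) in E76K, 2.85 ± 0.25 (adjusted p = 7.38e-08) in E113K and 2.05 ± 0.25 (adjusted p = 5.88e-06) in E113Q. In E71K, E71Q and E76Q it was 0.35 (adjusted p = 0.338), 0.20 (adjusted p = 0.546) and 0.07 (adjusted p = 0.846), with libraries between 16.4 and 36.8 TPM. The remaining 4 membrane-type genes, Mmp15, Mmp17, Mmp24 and Mmp25, averaged under 1 TPM.

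Mmp11, stromelysin-3, which unlike most MMPs is secreted in active form after furin cleavage, rose in E76K, E76Q and E113K. Its TPM was 49.97, 47.7 and 54.6 in E76K, 62.5, 68.7 and 64.1 in E76Q and 57.6, 60.6 and 60.5 in E113K, against 26.2, 27.4 and 22.8 in WT, and these groups did not overlap. The log2 fold changes were 0.97 ± 0.23 (adjusted p = 0.00389), 1.33 ± 0.23 (adjusted p = 0.000201) and 1.20 ± 0.23 (adjusted p = 0.000393) in that order, and in E113Q the value was 0.16 (adjusted p = 0.636). Mmp19, a secreted MMP with a broad range of basement membrane substrates, had its highest level in E76Q. It stood at 11.96, 13.3 and 23.8 TPM in E76K, 37.2, 39.7 and 35.8 TPM in E76Q and 15.8, 14.1 and 14.7 TPM in E113K, against 5.43, 6.49 and 5.66 TPM in WT, each clear of WT. The rises were 1.28 ± 0.35 (adjusted p = 0.00916), 2.49 ± 0.35 (adjusted p = 2.12e-05) and 1.21 ± 0.35 (adjusted p = 0.00778) in that order, and that of E76K was lost without E76K replicate 3, at 0.99 (adjusted p = 0.0607).

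Mmp28, or epilysin, was the one tested Mmp gene that fell. It stood at 18.98, 14.4 and 9.46 TPM in E71K, 18.1, 10.9 and 12.8 TPM in E71Q, 24.2, 21.4 and 15.7 TPM in E76K, 10.5, 10.4 and 11.5 TPM in E76Q, 14.5, 15.3 and 15.5 TPM in E113K and 19.6, 20.5 and 10.4 TPM in E113Q, against 29.5, 31.99 and 30.2 TPM in WT. All 18 mutant libraries lay below all 3 WT libraries. It passed the test in 5 mutants, with the largest difference in E76Q, -1.42 ± 0.24 (adjusted p = 0.000171), and a value of -0.58 (adjusted p = 0.0766) in E76K. The call in E113Q was lost without E113Q replicate 3, at -0.59 (adjusted p = 0.0686). Mmp12, macrophage elastase, stood near the filter at 2.94, 2.85 and 2.69 TPM in E76K and 1.93, 1.71 and 1.43 TPM in E113Q, against 0.793, 1.05 and 0.921 TPM in WT. It rose in E76K by 0.997 ± 0.16 (adjusted p = 0.000163) and in E113Q by 0.48 ± 0.16 (adjusted p = 0.0337). The E113Q call was lost without any 1 of the WT libraries (adjusted p between 0.0529 and 0.11), without E113Q replicate 1 (0.108) and without E113Q replicate 2 (0.0758). The 8 leukocyte markers summed to 82.2 to 121 TPM in E76K and 12.4 to 15.0 TPM in E113Q, against 31.1 to 32.0 TPM in WT. Of the 3 tested, 1 rose and 0 fell in E76K (of all genes 23.5% and 9.67%), where Lyz2 differed by 2.16 ± 0.37 (adjusted p = 0.000251). In E113Q 0 rose and 2 fell (17.9% and 12.7%). Adgre1 and Tyrobp were at 0 in all libraries of both mutants, and the part of these markers in the Mmp12 result was not tested.

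The proteoglycanases ADAMTS1 and ADAMTS5, which cut versican and aggrecan, rose in E76K, E113K and E113Q, and Adamts1 in E113K had the largest fold change of the tested members on the log2(TPM + 1) scale. With a pseudocount of 0.1 those of Mmp3 in E76K, 4.30, and of Adamts14 in E71Q, -4.15, were larger in size than the 3.87 of Adamts1 in E113K. Adamts1 stood at 36.9, 26.5 and 42.3 TPM in E71K, 15.8, 28.6 and 33.8 TPM in E71Q, 128, 137 and 308 TPM in E76K, 42.4, 47.5 and 45.6 TPM in E76Q, 816, 883 and 911 TPM in E113K and 199, 207 and 111 TPM in E113Q, against 56.3, 65.1 and 57.2 TPM in WT. The E113K libraries lay above every other library, E76K and E113Q lay above WT, and E71K, E71Q and E76Q lay below WT, each without overlap. The mean of E113K was 14.6 times that of WT, with a log2 fold change of 3.85 ± 0.31 (adjusted p = 2.7e-08). Adamts1 rose by 1.55 ± 0.31 (adjusted p = 0.000947) in E76K and by 1.47 ± 0.31 (adjusted p = 0.00158) in E113Q. In E71Q it fell, with -1.22 ± 0.31 (adjusted p = 0.00412), and in E71K and E76Q it stood at -0.76 (adjusted p = 0.0798) and -0.39 (adjusted p = 0.323). Without the 4 libraries that stood apart the last pair were -0.90 (adjusted p = 4.43e-05) and -0.39 (adjusted p = 0.00737). E76Q and WT hold none of the 4, so the E76Q fold change stayed and its p-value fell with the shared spread.

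Adamts5 stood at 34.5, 24.96 and 26.6 TPM in E71K, 13.2, 21.8 and 23.02 TPM in E71Q, 79.96, 83.1 and 100.1 TPM in E76K, 21.2, 23.3 and 24.3 TPM in E76Q, 201, 209 and 218 TPM in E113K and 92.04, 94.6 and 38.8 TPM in E113Q, against 28.5, 30.3 and 29.7 TPM in WT. As with Adamts1, the libraries of E76K, E113K and E113Q lay above WT and those of E71Q and E76Q below it. The rises were 1.53 ± 0.26 (adjusted p = 0.000182) in E76K, 2.78 ± 0.26 (adjusted p = 1.5e-07) in E113K and 1.21 ± 0.26 (adjusted p = 0.00161) in E113Q. In E71K, E71Q and E76Q the values were -0.05 (adjusted p = 0.913), -0.62 (adjusted p = 0.0576) and -0.35 (adjusted p = 0.278). The genes are neighbours on mouse chromosome 16 in GRCm38. Adamts1 spans chr16:85793827-85803113 and Adamts5 chr16:85858157-85901125, 55.0 kb apart with 0 protein-coding genes between them.

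Of the other proteoglycanases, Adamts4 was lower and changed less. It stood at 8.40, 8.39 and 9.91 TPM in E113K and 5.82, 5.82 and 8.47 TPM in E113Q, against 3.22, 3.02 and 2.81 TPM in WT, and rose by 1.30 ± 0.32 (adjusted p = 0.00257) and 0.92 ± 0.32 (adjusted p = 0.0345) in that order. Leaving out any 1 WT or E113Q library put the E113Q adjusted p between 0.0504 and 0.125. Adamts9, a versican-cleaving member, was highest in E76Q. It stood at 0.827, 0.738 and 2.52 TPM in E71K, 0.102, 0.136 and 0.195 TPM in E76K and 6.17, 7.16 and 7.41 TPM in E76Q, against 0.566, 0.458 and 0.448 TPM in WT. It rose by 2.41 ± 0.20 (adjusted p = 5.7e-08) in E76Q. Its mean over all libraries was 1.61 TPM, and it passed the filter only through E76Q, at a mean of 6.92 TPM. The E71K rise of 0.59 ± 0.20 (adjusted p = 0.0409) was 0.26 without E71K replicate 3, not called, and was also lost without any 1 WT library. Adamts8, Adamts15 and Adamts20 averaged under 1 TPM.

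Versican, the proteoglycan that these enzymes cut, moved the same way in every mutant: Vcan rose by 1.39 in E71K, 1.67 in E71Q, 1.05 in E76K, 2.16 in E76Q, 2.56 in E113K and 1.46 in E113Q on the log2 scale. Adamts1 and Adamts5 rose in 3 of these 6 mutants. Acan, which encodes aggrecan, did not pass the filter.

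Adamts12 and Adamts7, whose proteins cut cartilage oligomeric matrix protein, were the members that rose in all 6 mutants, as 3.65% of all tested genes did; 0 members fell in all 6, as 2.95% of all genes did. Adamts12 stood at 7.37, 5.19 and 9.91 TPM in E71K, 10.7, 11.6 and 11.1 TPM in E71Q, 6.53, 6.53 and 10.8 TPM in E76K, 6.86, 7.67 and 9.14 TPM in E76Q, 15.5, 17.00 and 17.4 TPM in E113K and 6.78, 7.71 and 15.02 TPM in E113Q, against 2.45, 2.70 and 2.23 TPM in WT. All mutant libraries exceeded all WT libraries, and the group means were between 3.04 and 6.75 times that of WT. The log2 fold change was 1.26 ± 0.24 (adjusted p = 0.00064) in E71K, 1.81 ± 0.24 (adjusted p = 1.1e-05) in E71Q, 1.34 ± 0.24 (adjusted p = 0.000355) in E76K, 1.36 ± 0.24 (adjusted p = 0.000229) in E76Q, 2.35 ± 0.24 (adjusted p = 5.23e-07) in E113K and 1.57 ± 0.24 (adjusted p = 7.8e-05) in E113Q.

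Adamts7 stood at 5.37, 3.99 and 8.81 TPM in E71K, 7.10, 7.93 and 7.90 TPM in E71Q, 2.82, 2.62 and 4.10 TPM in E76K, 4.16, 4.95 and 5.03 TPM in E76Q, 5.73, 5.02 and 6.51 TPM in E113K and 3.00, 3.08 and 3.71 TPM in E113Q, against 1.44, 1.56 and 1.71 TPM in WT. Again all 18 mutant libraries lay above WT, with the highest mean in E71Q, 7.64 ± 0.470 TPM against 1.57 ± 0.134 TPM in WT (SD, n = 3 each). The smallest rise, 0.69 ± 0.19 (adjusted p = 0.0107) in E76K, was lost without E76K replicate 3 (adjusted p = 0.0677). The substrate gene Comp rose in E76Q, by 1.42 ± 0.34 (adjusted p = 0.00269), and did not pass the test in the other 5 mutants, where its values were between 0.36 and 0.77.

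The procollagen N-proteinases, which trim the amino-terminal propeptide of fibrillar collagens, went opposite ways in E76Q and E113Q, where Adamts2 rose and Adamts14 fell. Adamts2 stood at 3.72, 2.66 and 5.06 TPM in E71K, 7.50, 7.03 and 7.11 TPM in E71Q, 7.70, 8.14 and 9.57 TPM in E76K, 16.9, 16.5 and 17.6 TPM in E76Q, 26.1, 27.2 and 26.1 TPM in E113K and 31.9, 29.1 and 43.9 TPM in E113Q, against 9.45, 10.1 and 9.75 TPM in WT. It rose by 0.74 ± 0.15 (adjusted p = 0.000978) in E76Q, 1.35 ± 0.15 (adjusted p = 2.03e-06) in E113K and 1.72 ± 0.15 (adjusted p = 1.42e-07) in E113Q. It fell in E71K, with -1.19 ± 0.15 (adjusted p = 1.09e-05), and in E71Q, with -0.39 ± 0.15 (adjusted p = 0.0493), where 20 alternatives, among them leaving out any 1 WT or E71Q library, ended the call. Adamts14 stood at 1.28, 1.20 and 2.36 TPM in E71K, 0.0722, 0.162 and 0.0748 TPM in E71Q, 1.86, 1.85 and 2.31 TPM in E76K, 1.14, 1.33 and 1.49 TPM in E76Q, 4.15, 3.90 and 3.78 TPM in E113K and 2.20, 2.45 and 1.36 TPM in E113Q, against 3.31, 3.61 and 3.38 TPM in WT. E71Q was near 0, and every mutant library but those of E113K lay below WT. The change was -2.01 ± 0.17 (adjusted p = 4.63e-08) in E71Q, -0.94 ± 0.17 (adjusted p = 0.000299) in E76Q and -0.79 ± 0.17 (adjusted p = 0.00187) in E71K. It was -0.56 ± 0.17 (adjusted p = 0.0173) in E76K, a call lost without WT replicate 2 or E76K replicate 1 or 2, and -0.58 ± 0.17 (adjusted p = 0.0153) in E113Q, lost without WT replicate 2 or E113Q replicate 3. In E113K the value was 0.16 (adjusted p = 0.462).

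Of the fibrillin-associated pair, Adamts10 rose in 5 mutants, while Adamts6 rose in 1 and fell in 3. Adamts10 stood at 9.86, 16.98 and 18.8 TPM in E71Q, 16.2, 15.9 and 14.2 TPM in E76Q and 10.7, 10.1 and 12.8 TPM in E113K, against 6.10, 5.26 and 6.17 TPM in WT, and rose by 1.20 ± 0.23 (adjusted p = 0.000517), 1.27 ± 0.23 (adjusted p = 0.000329) and 0.83 ± 0.23 (adjusted p = 0.00687) in that order. It also passed the test in E76K and E113Q, but leaving out any 1 WT library, or any 1 library of the mutant, ended each of those calls. Adamts6 stood at 1.13, 0.748 and 1.46 TPM in E71K and 0.626, 0.684 and 0.632 TPM in E71Q, against 2.69, 2.83 and 2.35 TPM in WT, and fell in both, with -0.79 ± 0.17 (adjusted p = 0.00178) and -1.13 ± 0.17 (adjusted p = 3.97e-05). In E113Q it fell as well, with -0.55 ± 0.17 (adjusted p = 0.0192), lost without WT replicate 1 or 2 or E113Q replicate 3. In E76K it rose by 0.57 ± 0.17 (adjusted p = 0.0157), lost without WT replicate 3 or E76K replicate 3. Adamts13 fell in E71Q, at 3.05, 2.88 and 3.11 TPM against 5.01, 5.48 and 4.73 TPM in WT, with -0.60 ± 0.12 (adjusted p = 0.000879).

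Among the inhibitors, Timp3, which is bound to the matrix, rose in 5 mutants and most in E71Q. It stood at 403, 319.7 and 378 TPM in E71K, 787, 565 and 635 TPM in E71Q, 342, 336 and 311 TPM in E76K, 424, 467 and 485 TPM in E76Q, 305, 327 and 329 TPM in E113K and 291, 325 and 247 TPM in E113Q, against 245, 246 and 259 TPM in WT. E113Q was the mutant that overlapped WT. The rise was 1.39 ± 0.12 (adjusted p = 8.82e-08) in E71Q, 0.87 ± 0.12 (adjusted p = 2.53e-05) in E76Q and 0.55 ± 0.12 (adjusted p = 0.00278) in E71K. In E76K it was 0.40 ± 0.12 (adjusted p = 0.0199) and in E113K 0.36 ± 0.12 (adjusted p = 0.0232); a median-ratio rescaling put these at 0.23 (adjusted p = 0.204) and 0.22 (adjusted p = 0.201), and leaving out WT replicate 1 or 2 ended both calls too, as did E76K replicate 1 or 2 and E113K replicate 2 or 3.

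Timp1 passed the test in 0 of the 6 mutants. It stood at 255, 183 and 157 TPM in E71K, 199, 145 and 140.2 TPM in E71Q, 167, 164 and 111 TPM in E76K, 132, 126 and 121 TPM in E76Q, 139.8, 144 and 135 TPM in E113K and 227, 202 and 140.3 TPM in E113Q, against 165, 145 and 169.8 TPM in WT. Its log2 fold changes were between -0.33 in E76Q and 0.28 in E71K, and the libraries of E76Q and of E113K lay below WT. Without the 4 libraries that stood apart it passed the test in 3 mutants, E71K (0.44), E76Q (-0.33) and E113Q (0.42). The E76Q fold change was the same with them, and its p-value fell with the shared spread. Timp4 averaged under 1 TPM over all libraries and was not tested. It stood at 2.64, 2.47 and 2.63 TPM in E76Q, against 0.236, 0 and 0 TPM in WT, and the other 5 mutants held between 0 and 1.25 TPM. In a fit with no filter its log2 fold change in E76Q was 1.74 ± 0.21 (adjusted p = 8.81e-06).

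The stromelysin and collagenase genes of mouse chromosome 9 were near 0 in WT. Of 10 Mmp genes that lie side by side there, within 427 kb at chr9:7272514-7699585 in GRCm38, Mmp3 and Mmp12 passed the filter. Mmp3, stromelysin-1, which cleaves proteoglycans and fibronectin and activates other proMMPs, stood at 0, 0 and 0 TPM in E71K, 0.0573, 0.0737 and 0.0791 TPM in E71Q, 6.18, 3.75 and 10.1 TPM in E76K, 0.0862, 0.132 and 0.264 TPM in E76Q, 2.56, 1.29 and 2.45 TPM in E113K and 0.0863, 0.358 and 0.111 TPM in E113Q, against 0.106, 0.217 and 0.398 TPM in WT. Every library of E76K and E113K lay above every other library. The log2 fold change was 2.55 ± 0.25 (adjusted p = 3.52e-07) in E76K and 1.30 ± 0.25 (adjusted p = 0.000355) in E113K, and the mean TPM was 27.8 and 8.73 times that of WT. Mmp3 averaged 1.35 TPM over all libraries and passed the filter only through E76K, where its mean was 6.67 TPM. Without E76K replicate 3 it was under the filter and not tested. In E71K the gene was listed at 0 in all 3 libraries, and with a pseudocount of 0.1 in place of 1 that difference passed the test (adjusted p = 0.018).

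Mmp13, collagenase-3, the main interstitial collagenase of the mouse, averaged under 1 TPM. It stood at 1.57, 0.993 and 0.427 TPM in E76K and 0.711, 0.865 and 0.941 TPM in E113K, against 0.374, 0.194 and 0.255 TPM in WT, and these groups did not overlap. In the other 4 mutants it was between 0 and 0.165 TPM, all below the lowest WT library. In a fit with no filter the log2 fold changes of E76K and E113K were 0.61 (adjusted p = 0.00293) and 0.53 (adjusted p = 0.00526). Mmp9, gelatinase B, stood at 0.267, 0.446 and 2.99 TPM in E76K, against 1.10, 0.988 and 1.14 TPM in WT. The other 15 mutant libraries held between 0 and 0.705 TPM, all below WT, and in E76K replicate 3 was above WT while its mates were below.

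**Figure D5:**
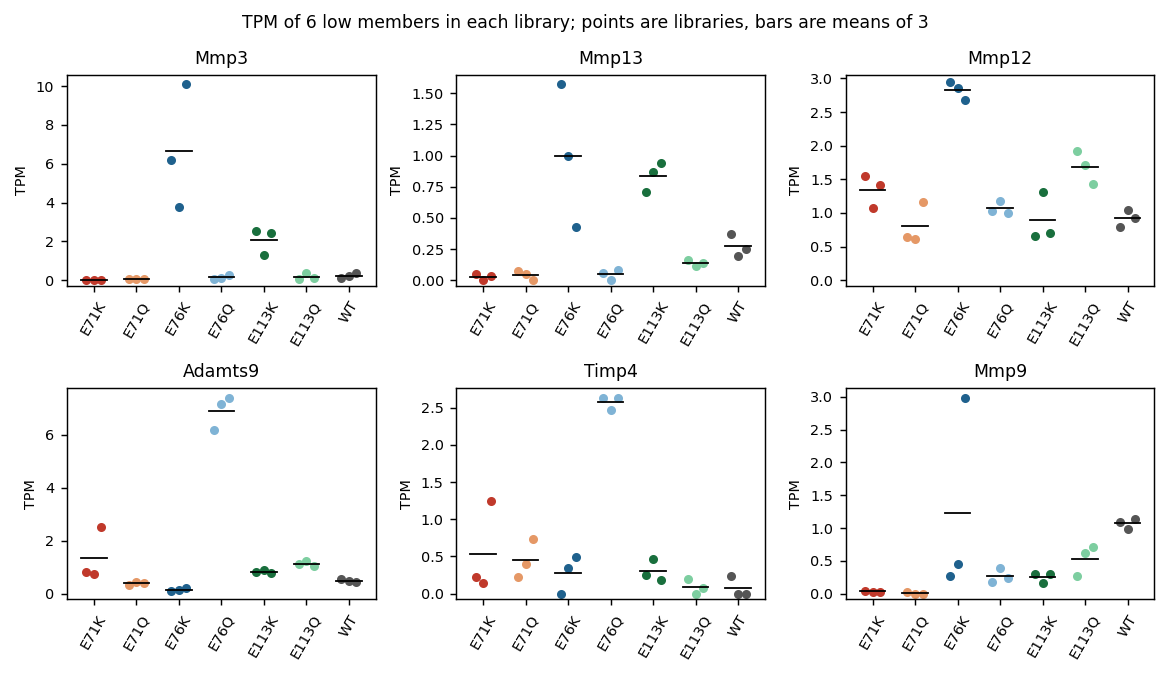
TPM of 6 members of low level (Mmp3, Mmp13, Mmp12, Adamts9, Timp4 and Mmp9) in each of the 3 libraries of every group, mutants left of WT, with the group mean. Mmp3 is highest in E76K and E113K, and Adamts9 and Timp4 are highest in E76Q.

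The promoters of the members that carried these differences were taken from RefSeq (GRCm38.p6; 250 bases before the transcription start and 50 after it). They are shown to set the letters of genes that rose in all or several mutants beside those of the chromosome 9 genes. Of the 46 members 32 matched the table, and Adamts7 and Adamts5 were not among the matches. Capitals mark an AP-1 site (TGANTCA) or a TATA box (TATAAA), searched on both strands; the motifs do not overlap each other. Mmp3 and Mmp13 were added after their values were seen. The windows are Adamts12 at chr15:11064523-11064822 (plus strand), Adamts1 at chr16:85803064-85803363 (minus strand), Mmp14 at chr14:54431348-54431647 (plus strand), Mmp3 at chr9:7445572-7445871 (plus strand) and Mmp13 at chr9:7272264-7272563 (plus strand).
Adamts12: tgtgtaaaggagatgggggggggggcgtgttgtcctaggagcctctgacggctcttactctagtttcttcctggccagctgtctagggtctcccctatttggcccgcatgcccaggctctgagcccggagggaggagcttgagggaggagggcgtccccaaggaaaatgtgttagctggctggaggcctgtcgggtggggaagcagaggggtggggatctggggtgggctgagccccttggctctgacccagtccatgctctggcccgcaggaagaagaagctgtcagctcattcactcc
Adamts1: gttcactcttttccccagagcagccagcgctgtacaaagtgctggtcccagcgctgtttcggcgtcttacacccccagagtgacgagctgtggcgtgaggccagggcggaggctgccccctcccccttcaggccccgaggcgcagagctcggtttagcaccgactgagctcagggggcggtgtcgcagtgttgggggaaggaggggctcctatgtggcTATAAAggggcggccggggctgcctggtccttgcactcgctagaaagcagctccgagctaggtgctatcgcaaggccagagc
Mmp14: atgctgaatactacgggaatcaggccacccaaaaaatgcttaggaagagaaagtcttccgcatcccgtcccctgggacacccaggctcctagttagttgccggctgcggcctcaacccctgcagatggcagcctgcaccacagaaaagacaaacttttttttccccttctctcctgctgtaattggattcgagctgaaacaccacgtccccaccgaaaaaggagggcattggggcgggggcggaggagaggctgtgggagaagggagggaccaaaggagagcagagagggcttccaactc
Mmp3: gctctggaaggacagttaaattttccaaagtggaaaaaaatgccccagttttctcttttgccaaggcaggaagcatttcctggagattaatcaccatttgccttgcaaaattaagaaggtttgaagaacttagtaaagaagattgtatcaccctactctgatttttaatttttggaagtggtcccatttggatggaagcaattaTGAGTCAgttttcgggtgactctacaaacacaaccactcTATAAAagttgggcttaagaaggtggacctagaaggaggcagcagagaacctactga
Mmp13: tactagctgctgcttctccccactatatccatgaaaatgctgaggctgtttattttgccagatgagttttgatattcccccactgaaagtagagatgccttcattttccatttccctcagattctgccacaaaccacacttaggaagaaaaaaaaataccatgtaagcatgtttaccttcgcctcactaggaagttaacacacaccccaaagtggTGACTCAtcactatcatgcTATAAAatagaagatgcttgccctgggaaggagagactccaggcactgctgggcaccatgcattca

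The Mmp3 window holds an AP-1 match 46 bases and a TATA match 7 bases before the annotated start, and the Mmp13 window an AP-1 match 35 and a TATA match 16 bases before it. Adamts1 has a TATA match 32 bases before its start, and the windows of Adamts12 and Mmp14 hold neither. Among all 32851 RefSeq promoters 7.81% hold the AP-1 letters and 13.6% the TATA letters, counted by window. Of the 35 windows of members 8 hold the AP-1 letters and 11 the TATA letters. The next counts are by gene, with a match in at least 1 window. All 10 members of the chromosome 9 stretch had a promoter in the table, 8 with an AP-1 match and 9 with a TATA match. Mmp12 and Mmp7 each have another window with neither motif. Of the 22 matched members outside that stretch 0 had an AP-1 match and 2, Adamts1 and Mmp21, a TATA match. Mmp1b, Mmp7 and Mmp8, of the chromosome 9 stretch, were at 0 in all libraries. Mmp1b holds both motifs, and so does 1 window of Mmp7. A match is a description of these letters and not a bound site.

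Lysine and glutamine at the same residue were compared directly. At E113 12 members differed, where 28% of all tested genes did. Of these 11 were higher in E113K, as were 14.6% of all genes, and 1 was lower, as were 13.3%. Adamts1 differed by 2.38 ± 0.31 (adjusted p = 2.86e-05), Adamts5 by 1.57 ± 0.26 (adjusted p = 0.000257), Mmp3 by 1.37 ± 0.25 (adjusted p = 0.000598), and Mmp19 by 1.35 ± 0.35 (adjusted p = 0.00768). Mmp14 was higher in E113K as well, by 1.17 ± 0.39 (adjusted p = 0.0339). Mmp2 and Timp2 differed by 0.26 (adjusted p = 0.668) and 0.14 (adjusted p = 0.684). The count was 7 without E113K replicate 3, when 19.6% of all genes differed, and 16 without the libraries that stood apart, when 44.7% did.

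At E76 11 members differed, against 31.9% of all genes, 6 higher in E76K (23.4% of all genes were) and 5 lower (8.46%). The lysine libraries were higher for Mmp3, by 2.64 ± 0.25 (adjusted p = 2.6e-07), Adamts1, by 1.94 ± 0.31 (adjusted p = 0.000119), and Adamts5, by 1.89 ± 0.26 (adjusted p = 2.15e-05). They were lower for Adamts9, with -2.79 ± 0.20 (adjusted p = 9.85e-09), and for Mmp19, with -1.21 ± 0.35 (adjusted p = 0.0132). Mmp3 and Adamts9 had passed the filter only through E76K and E76Q in that order. At E71 7 members differed, against 25.1% of all genes, 3 higher in E71K (12.8% of all genes were) and 4 lower (12.3%). Mmp2 was lower in E71K, with -1.23 ± 0.39 (adjusted p = 0.0297), and so were Mmp14, with -1.10 ± 0.39 (adjusted p = 0.0483), and Timp3, with -0.84 ± 0.12 (adjusted p = 0.000118). Adamts14 was higher, by 1.22 ± 0.17 (adjusted p = 7.37e-05). The E71 count rested on single libraries: it was 13 without E71K replicate 3 (38.5% of all genes) and 4 without E71Q replicate 2 (14.7%), and 17 without the 4 libraries that stood apart (53.5%). The dividing-cell markers also differed. Of these, 6 of 6 were higher in E71K than in E71Q (12.8% of all genes were) and 6 of 6 lower in E113K than in E113Q (13.3%).

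Whether the signed lysine minus glutamine difference varied between residues was tested as an interaction. A positive value means a higher signed difference at the residue named first, which need not be larger in size. Between E76 and E71 7 members passed, where 21.7% of all genes did, with 5 positive (15.4% of all genes) and 2 negative (6.3%). Between E113 and E71 13 passed, where 32.7% did, with 10 positive (16.6%) and 3 negative (16.1%). Between E113 and E76 9 passed, where 29.5% did, with 6 positive (9.65%) and 3 negative (19.8%). The first of these counts was 4 without E76K replicate 3. That count stands without the share of all genes in the same fit and is not read as a result about the members. The signed difference of Adamts1, Adamts5, Mmp14 and Mmp3 was higher at E113 and at E76 than at E71. For Mmp14 it was 1.17 at E113, 0.92 at E76 and -1.10 at E71, so its sign differed. Between E113 and E76 the largest interactions were those of Adamts9, which passed the filter only through E76Q, and Mmp19. The difference of Adamts9 was -0.21 at E113 and -2.79 at E76, and that of Mmp19 was 1.35 and -1.21.

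Partner genes were counted from 3 lists, each beside the share of all tested genes that rose or fell against WT. Those shares were 12.5% and 14.2% in E71K, 20.7% and 23.5% in E71Q, 23.5% and 9.67% in E76K, 22% and 22.4% in E76Q, 30.3% and 20.7% in E113K and 17.9% and 12.7% in E113Q. Of 10 regulators of pericellular proteolysis, all tested, 2 rose and 4 fell in E71K, 3 rose and 4 fell in E71Q, 4 rose and 1 fell in E76K, 2 rose and 4 fell in E76Q, 4 rose and 2 fell in E113K, and 3 rose and 2 fell in E113Q. Their median log2 fold change lay between -0.42 in E71K and 0.29 in E113K, where the median of all tested genes was 0.00 in E71K and 0.13 in E113K. Reck, a membrane-anchored MMP inhibitor, rose in all 6 mutants, from the smallest value of 0.73 ± 0.18 (adjusted p = 0.00321) in E76Q to the largest of 1.98 ± 0.18 (adjusted p = 1.15e-07) in E113K. Plau, the urokinase that starts plasminogen activation, fell in E71K, with -3.38 ± 0.23 (adjusted p = 4.05e-09), in E71Q, with -2.55 ± 0.23 (adjusted p = 1.32e-07), and in E76Q, with -1.64 ± 0.23 (adjusted p = 2.75e-05). It rose in E76K by 0.85 ± 0.23 (adjusted p = 0.0102) and in E113K by 1.79 ± 0.23 (adjusted p = 9.05e-06), and stood at -0.18 (adjusted p = 0.587) in E113Q. Serpine2, a serine protease inhibitor, fell in E71K, with -1.82 ± 0.19 (adjusted p = 9.95e-07), and rose in the other 5 mutants. Furin and Bsg, the proMMP convertase and an MMP inducer, passed the test in 0 mutants.

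Of 18 other metzincins and procollagen-processing genes 15 were tested. In E113K 10 rose and 1 fell (of all genes 30.3% and 20.7%), in E71Q 8 rose and 2 fell (20.7% and 23.5%), in E76K 7 rose and 1 fell (23.5% and 9.67%), in E113Q 7 rose and 1 fell (17.9% and 12.7%), in E71K 6 rose and 1 fell (12.5% and 14.2%) and in E76Q 3 rose and 2 fell (22% and 22.4%). Their median log2 fold change lay between 0.24 in E76Q and 0.66 in E113K, where that of all genes was 0.02 in E76Q and 0.13 in E113K. The sheddase gene Adam12 rose in E76K by 1.92 ± 0.20 (adjusted p = 8.01e-07), in E113K by 1.59 ± 0.20 (adjusted p = 5.95e-06) and in E113Q by 0.77 ± 0.20 (adjusted p = 0.00734). Adam8 fell in 5 mutants, with -2.22 ± 0.36 (adjusted p = 7.52e-05) in E113K, and stood at -0.20 (adjusted p = 0.694) in E76K.

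Of 13 substrate genes 10 were tested. In E71K 4 rose and 0 fell (of all genes 12.5% and 14.2%), in E71Q 7 rose and 1 fell (20.7% and 23.5%), in E76K 4 rose and 1 fell (23.5% and 9.67%), in E76Q 6 rose and 0 fell (22% and 22.4%), in E113K 5 rose and 1 fell (30.3% and 20.7%), and in E113Q 6 rose and 1 fell (17.9% and 12.7%). Their median log2 fold change lay between 0.29 in E76K and 1.36 in E76Q, where that of all genes was 0.16 in E76K and 0.02 in E76Q. Fn1, which encodes fibronectin, and Col1a2 rose in all 6 mutants, Fn1 by 3.00 ± 0.36 (adjusted p = 4.17e-06) in E76Q and Col1a2 by 2.02 ± 0.13 (adjusted p = 1.65e-09) in E76K. Col2a1, the cartilage collagen, rose in E71K, E71Q, E76Q and E113Q and stood at 0.03 (adjusted p = 0.952) in E76K and -0.62 (adjusted p = 0.0877) in E113K.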

How the data were processed

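RNA was isolated with RNeasy kits and libraries were made with the NEBNext Ultra II kit, per the labels' protocols. The authors deposited TPM per gene and library for 24091 genes; per the submitters' processing notes, Salmon, featureCounts 1.4.4, DESeq and the mm10 build were used, with their roles not stated. No read counts were used, so the depth is unknown. A table of group means was not used.

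Groups were taken from the genotype in the labels. The log2(TPM + 1) values of the 12192 genes that averaged 1 TPM or more were fitted in limma 3.58.1 (R 4.3.3), with 1 mean per group, moderated variances with trend, 14 residual degrees of freedom and Benjamini-Hochberg adjustment within each comparison; a call is an adjusted p below 0.05. The contrasts were each mutant against WT, lysine against glutamine, their interactions and an F test. The procedure was tested on simulated data. Alternatives were pseudocounts of 0.1 and 5, no filter or a mean of at least 5 TPM, median-ratio rescaling, Mir6236 left out, the replicate number as a block, the compared libraries alone, and libraries left out singly or 4 together.

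The members, gene lists and alternatives were chosen with earlier results of these data known. Always named were the Timp genes, Mmp2, Mmp3, Mmp13, Mmp14, Adamts1, Adamts4 and Adamts5. The others named were up to 8 called members per mutant, up to 4 per lysine against glutamine comparison and up to 3 per interaction, by size of change, any member that differed in the F test with a group mean of at least 10 TPM, and up to 4 per gene list. Coordinates are from the RefSeq table of GRCm38.p6, the same build as mm10. Figures and tables were made with matplotlib 3.10.9, pandas 2.3.3 and numpy 2.4.6. TPM is relative: a gene that takes a larger share lowers all others.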

Additional observations from a re-analysis of the deposited data

Results flagged for a closer look

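The 3 largest passing interactions of each pair of residues are given here. They concern 6 members, for which the lysine minus glutamine difference itself differed between residues by a test of the interaction (log2 scale, limma, adjusted over 12192 genes). Of these, Mmp3 and Adamts9 passed the filter only through E76K and E76Q in that order. Between E76 and E71 the difference was -3.47 ± 0.29 for Adamts9 (adjusted p = 7.69e-08), 2.74 ± 0.35 for Mmp3 (adjusted p = 1.57e-05) and 2.02 ± 0.55 for Mmp14 (adjusted p = 0.0138). Between E113 and E71 it was 2.26 ± 0.55 for Mmp14 (adjusted p = 0.00473), 2.135 ± 0.49 for Mmp19 (adjusted p = 0.0031) and 1.92 ± 0.44 for Adamts1 (adjusted p = 0.00296). Between E113 and E76 it was 2.58 ± 0.29 for Adamts9 (adjusted p = 4.07e-06), 2.56 ± 0.49 for Mmp19 (adjusted p = 0.000869) and -1.41 ± 0.23 for Mmp12 (adjusted p = 0.000258).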

How the results depend on the processing

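Of 132 comparisons of a tested member with WT 78 were called. Of these 61 were called under every alternative in which the gene was tested, 17 were lost under at least 1 and 0 reversed. Of the 54 not called, 33 were called under at least 1. An alternative whose filter left a gene out does not count for that gene. This holds for members averaging under 5 TPM with the filter of 5 TPM, and for Mmp3 also without E76K replicate 3. No single library moved a called fold change, as an unlogged ratio, by over 1.5 times. With a filter of at least 5 TPM, which tests 15 members, the counts were 5 in E71K, 9 in E76K, 4 for E71K against E71Q, 7 for E113K against E113Q, and 4, 8 and 4 for the interactions of E76 with E71, E113 with E71 and E113 with E76. Without the 4 libraries that stood apart they were 17 in E76Q, 17 for E71K against E71Q, 19 for E76K against E76Q, and 11, 22 and 20 for the same interactions, when 40.6% to 64.6% of all genes were called against WT and 44.7% to 57.4% in these other comparisons. Fitted to the compared libraries alone they were 19 in E76Q, 1 for E71K against E71Q, and 4 and 8 for the interactions of E76 and of E113 with E71. Median-ratio rescaling gave 12 for E71K against E71Q. The causes of these moves were not tested, apart from the fewer genes of the higher filter. Leaving out each library in turn gave 8 to 11 members in E71K, 12 to 14 in E71Q, 9 to 17 in E76K, 11 to 13 in E76Q, 15 to 17 in E113K and 9 to 17 in E113Q. It gave 4 to 13, 8 to 16 and 7 to 13 for lysine against glutamine at E71, E76 and E113, 4 to 9, 11 to 19 and 7 to 13 for the interactions, and 20 to 22 in the F test. With the replicate block the counts against WT were 10, 13, 16, 13, 16 and 15 for E71K, E71Q, E76K, E76Q, E113K and E113Q; 0 of the calls were lost and 5 were gained. Whether the numbers pair the samples is not settled here. Over 63 pairs of same-numbered libraries the correlation of deviations lay between -0.17 and 0.42, with a median of -0.001, and 13 passed 0.1. No reference values were made for these correlations, so they cannot decide on a pairing. Apart from those without the 4 libraries, the member counts under these alternatives stand without the share of all genes called under the same setting. They are not read as results about the members. The unknown depth leaves values under 1 TPM without a counting error.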

Other observations

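Members under the filter were fitted once with no filter. Mmp17, a membrane-type protease anchored by glycosylphosphatidylinositol, held between 0 and 0.126 TPM in the mutant libraries, against 0.214, 0.382 and 0.234 TPM in WT, and passed the test as lower in all 6 mutants (log2 fold changes of -0.35 to -0.28, highest adjusted p = 0.000113). Mmp20 passed as lower in all 6 as well (-0.07 to -0.05, highest adjusted p = 0.0449), though its highest library held 0.0816 TPM. Mmp9, gelatinase B, passed as lower in E71K (-1.004, adjusted p = 0.0143), E71Q (-1.04, adjusted p = 0.00823) and E113K (-0.73, adjusted p = 0.0475). Adamts16 passed as higher in E76Q (0.55, adjusted p = 0.000776) and E113K (0.33, adjusted p = 0.0197), and Adamts17 in E113Q (0.15, adjusted p = 0.0434). With no filter 21% to 35.9% of 20157 genes were called against WT. Mmp15 stood at 0.414, 0.590 and 0.693 TPM in E71Q and 0.526, 0.375 and 1.14 TPM in E113Q, against 0.142, 0.0661 and 0.121 TPM in WT, with log2 fold changes of 0.49 in E71Q (adjusted p = 0.037) and 0.57 in E113Q (adjusted p = 0.0224). Mmp23 reached its highest value, 1.24 TPM, in E71K replicate 1, where its mates held 0.21 and 0.307 TPM, against 0.360, 0.353 and 0.417 TPM in WT.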
